A study of Mus musculus with 4 samples.

Results

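ICOS, the inducible T cell co-stimulator, and its ligand ICOSL are 2 of the 17097 genes with a probe set of their own on 4 Affymetrix arrays. They were represented by 5 of the 45037 probe sets compared, 3 for Icos and 2 for Icosl, and all 5 passed a filter on dim signals. They comprise every probe set that the platform annotation assigned to either gene alone. The pair was chosen from a comparison of these same arrays in which the receptor was higher and the ligand lower, so the differences of the 5 probe sets are given as a description, with no test. Total RNA had been taken from lymph node B cells of mice on the Balb/C background, all of them male and 6 to 8 weeks old. The wild type group held 2 mice. The miR-146a transgenic group, which over-expressed the microRNA miR-146a, held 2 mice, with 1 array per mouse. The sources used here do not name the promoter that drove the transgene or the cells in which it was active. The B cells came from an untouched magnetic separation, a type of method in which the other cells are bound and held back, and dead cells were removed.

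ICOS belongs to the CD28 family of receptors and appears on T cells after activation. It is abundant on T follicular helper cells, which support germinal centre B cells, and on many regulatory T cells. ICOSL, a B7-family protein, is carried by resting B cells, dendritic cells and other antigen-presenting cells. Binding of the ligand activates phosphoinositide 3-kinase in the T cell, whereas the ligand itself is shed from the B cell surface after contact with ICOS. The amount of each partner therefore affects the other at the protein level, and miR-146a has been described to limit both transcripts. The series description compares wild type with transgenic mice and examines seed matches of microRNAs, and the seed is the stretch of a microRNA that pairs with its targets.

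The mature form of the over-expressed microRNA is shown because its seed is the feature by which targets are recognised. In RefSeq (GRCm38.p6) miR-146a-5p lies on the minus strand at chr11:43374435-43374456 and miR-146b-5p on the plus strand at chr19:46342790-46342811. Capitals mark the seed, bases 2 to 8 from the 5′ end.
miR-146a-5p: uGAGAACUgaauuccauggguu
miR-146b-5p: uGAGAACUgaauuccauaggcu
Both are 22 bases long, and these 2 were the mature mouse microRNAs in the RefSeq table that carried this seed. Matches to it in Icos and Icosl transcripts were not analysed here.

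The promoter window of Icosl is shown because this gene's main probe set had one of the lowest transgenic-minus-wild-type differences on the arrays. The window runs from 250 bases before to 50 bases after the RefSeq start (chr10:78069118-78069417, plus strand, GRCm38.p6). Capitals mark CCAAT boxes (CCAAT, either strand) and a GC box (GGGCGG).
Icosl: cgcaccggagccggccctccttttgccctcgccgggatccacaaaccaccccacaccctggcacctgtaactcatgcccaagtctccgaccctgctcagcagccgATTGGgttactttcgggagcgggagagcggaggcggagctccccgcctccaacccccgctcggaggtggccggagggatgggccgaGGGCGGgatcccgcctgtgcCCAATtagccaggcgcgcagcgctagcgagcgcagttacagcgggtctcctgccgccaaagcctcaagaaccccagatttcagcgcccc
The window was 68.0% G or C and held 26 CG dinucleotides, against medians of 52.7% and 7 over 32851 RefSeq promoter windows of the same length. It held 2 CCAAT boxes and 1 GC box, letters found on either strand in 37.4% and 35.7% of all windows. It held no TATA box (TATAAA, found in 13.6% of windows on either strand) and no octamer (ATTTGCAT, 1.74%). Letter matches do not show that a factor binds.

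Icos transcripts were higher in both transgenic mice on all 3 probe sets, by 1.20 to 1.60 on the log2 scale. The brightest probe set, 1436598_PM_at, read 8.51 and 8.47 in wild type mice 1 and 2 and 9.73 and 10.03 in transgenic mice 1 and 2 (log2 signal). Both transgenic values lay above both wild type values, with a gap of 1.22 between the groups, against 0.04 between the wild type mice and 0.31 between the transgenic mice. The group means were 8.49 ± 0.03 and 9.88 ± 0.22 (SD, n = 2 each), a log2 difference of 1.39 or 2.63-fold.

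The other Icos probe sets gave the same order of the groups. On 1421930_PM_at the wild type mice read 8.03 and 7.96 and the transgenic mice 9.10 and 9.30, a log2 difference of 1.20 or 2.30-fold. On 1421931_PM_at, the dimmest, the wild type mice read 6.24 and 6.47 and the transgenic mice 7.98 and 7.94, a log2 difference of 1.60 or 3.04-fold. Among all 17097 genes 17.7% were higher and 31.4% were lower in the transgenic mice with no overlap between the groups, and nothing is read from these shares, since the pair was chosen on this contrast. The groups did not overlap on either Icos probe set, and the smallest gap between them over the 3 probe sets was 1.07. Which transgenic mouse was the higher one depended on the probe set: mouse 2 on the first pair and mouse 1, by 0.04, on 1421931_PM_at. The mean of the 3 probe sets was 7.59 and 7.63 in the wild type mice and 8.94 and 9.09 in the transgenic mice, a log2 difference of 1.40. With each gene represented by its brightest probe set, 37 of 17097 had a higher transgenic-minus-wild-type difference than Icos.

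Icosl transcripts were lower in both transgenic mice on 1 of 2 probe sets. On the brighter one, 1419212_PM_at, the wild type mice read 9.0 and 9.34 and the transgenic mice 7.69 and 7.48. The lowest wild type value exceeded the highest transgenic value by 1.32, and mice of one group differed by 0.34 (wild type) and 0.21 (transgenic). The means were 9.17 ± 0.24 and 7.58 ± 0.15 (SD, n = 2 each), a log2 difference of -1.59 or a 3.01-fold lower signal, and 12 of 17097 genes had a lower difference. The dimmer probe set, 1426087_PM_at, is annotated through another GenBank record and read 4.71 and 4.95 in the wild type mice and 4.60 and 4.73 in the transgenic mice. Its groups overlapped, since transgenic mouse 2 lay 0.02 above wild type mouse 1, and the means differed by -0.17.

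The Icosl probe sets therefore disagreed in size. Their signals stood at different distances from the 23 non-specific control probe sets, which averaged 3.02 and 3.06 on the wild type arrays and 3.18 and 3.05 on the transgenic ones. The brighter Icosl probe set lay 6.14 above these controls in the wild type group and 4.47 above them in the transgenic group. The dimmer one lay 1.79 and 1.54 above them. Whether this distance bears on the disagreement was not tested. As the mean of both probe sets, Icosl read 6.86 and 7.15 in the wild type mice and 6.14 and 6.10 in the transgenic mice, a log2 difference of -0.88. The probe sequences, which would show the parts of the transcript each probe set covers, were not used here.

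**Figure D1:**
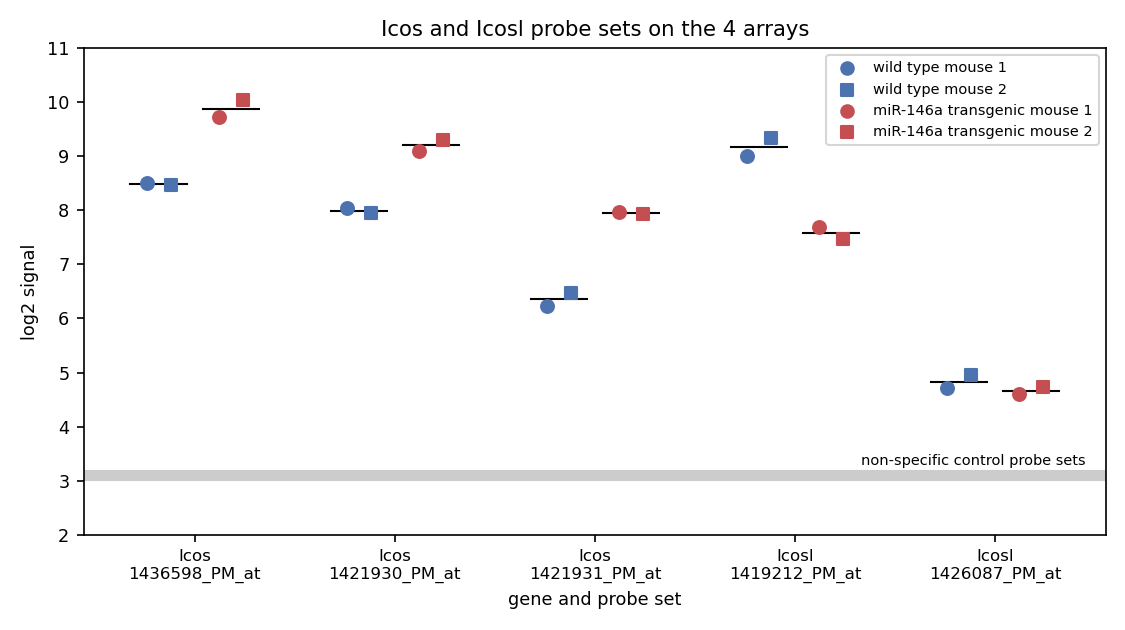
Log2 signal (vertical axis) of the 3 Icos and 2 Icosl probe sets (horizontal axis) in each mouse, with wild type in blue and miR-146a transgenic in red; black bars are group means of 2 mice and the grey band spans the mean of 23 non-specific control probe sets on the 4 arrays. The transgenic points lie above the wild type points on all 3 Icos probe sets and below them on Icosl 1419212_PM_at, while the groups overlap on 1426087_PM_at at 4.60 to 4.95.

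Receptor and ligand differed from the wild type mean in opposite directions within each transgenic mouse. Taken from the wild type mean on the brightest probe set of each gene, transgenic mouse 1 stood at 1.24 for Icos and -1.49 for Icosl, and transgenic mouse 2 at 1.55 and -1.69. The difference between the receptor's change and the ligand's change was 2.73 in transgenic mouse 1 and 3.24 in transgenic mouse 2, with a mean of 2.98 on the log2 scale. In the wild type mice it was 0.19 and -0.19, which mirror each other because both are taken from their own mean. As the mean of all probe sets of each gene, the changes were 1.40 for Icos and -0.88 for Icosl. Transgenic mouse 2 had the larger departure for both genes on the brightest probe sets as deposited. After quantile normalization the transgenic mice were nearly level on Icos 1436598_PM_at (9.95 and 9.96), and mouse 1 was the higher one on the other Icos probe sets (9.32 against 9.22 and 8.22 against 7.86). The order of the transgenic mice for Icos thus depended on the scaling.

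The arrays themselves differed in ways the groups do not explain. The array of transgenic mouse 1 had a median of 4.48 and an upper quartile of 6.13, below the other 3 (4.59 to 4.61 and 6.51 to 6.55). Across probe sets the wild type arrays correlated at r = 0.9984, the transgenic arrays at 0.9893, transgenic mouse 2 with the wild type arrays at 0.991 to 0.9912, and transgenic mouse 1 with them at 0.9811. After quantile normalization, which gives all 4 arrays one distribution, Icos 1436598_PM_at differed by 1.55 and Icosl 1419212_PM_at by -1.43. Without transgenic mouse 1 these values were 1.55 and -1.69, and without transgenic mouse 2 1.24 and -1.49.

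B cell and T cell transcripts were checked next, since ICOSL is carried by B cells and ICOS by T cells. Of 45037 probe sets, 17 (0.0377%) were higher and 4 (0.00888%) were lower in the transgenic arrays at an adjusted p under 0.05 (limma with Benjamini-Hochberg adjustment). After quantile normalization the shares were 0.893% higher and 1.04% lower. The median difference over all genes was -0.05, or 0.02 after quantile normalization. The shares of all genes without overlap, given above as 17.7% higher and 31.4% lower, are the background for the list counts without overlap that follow. At an unadjusted limma p under 0.05, 655 of all 17097 genes were higher and 1747 were lower. These are the background for the list counts at that cut. In RNA taken from many cells of a mouse together, fewer cells of a type and less RNA per cell cannot be told apart.

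B cell genes were clearly present, and 17 of 18 measured members of the list were lower in the transgenic mice without overlap, with a median difference of -0.94. None passed limma over all probe sets (16 lower and 1 higher at an unadjusted p under 0.05), and after quantile normalization 10 were lower and 1 was higher past the threshold, with a median of -0.81. Blk, a kinase near the B cell receptor, differed by -1.31 (SE 0.12, limma adjusted p = 0.0935). Btk, another kinase of that receptor, differed by -1.07, Fcer2a, the IgE receptor CD23, by -1.02, and Pou2af1, a B cell co-activator, by -1.10 (limma adjusted p = 0.0935 for each). Ly6d, named after its values were seen, was the list member that stood higher, by 0.89. The mean level of the list was 9.78 and 9.82 in the wild type mice and 8.88 and 9.10 in the transgenic mice.

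By group means on the brightest probe sets, Icosl (-1.59) lay below the 18 B cell genes, of which the lowest was Cd79a at -1.41. A dimmer probe set of Fcrla, an Fc receptor-like protein of B cells, lay lower, at -1.72. The order also did not hold within each mouse. In transgenic mouse 1 Spib (-1.75) and Ebf1 (-1.51), both B cell transcription factors, lay below Icosl (-1.49), and in transgenic mouse 2 Cd79a (-1.75) lay below it (-1.69). The list median stood at -1.02 in transgenic mouse 1, a margin of -0.47 for Icosl, and at -0.78 in transgenic mouse 2, a margin of -0.91. After quantile normalization none of 18 lay below Icosl by group means. With Icosl taken as the mean of its 2 probe sets its difference, -0.88, was smaller than the list median. The part of B cell content in the Icosl difference was not tested.

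T cell genes were bright in both groups although the preparations were labelled as B cells. All 18 measured T cell genes had wild type means between 7.12 and 11.40, the highest being Cd3d, a chain of the T cell receptor complex. Of the 18, 15 were higher and 1 was lower in the transgenic mice without overlap, with a median difference of 0.31 (0.24 in transgenic mouse 1 and 0.41 in mouse 2). None passed limma over all probe sets (9 higher and 1 lower at an unadjusted p under 0.05), and after quantile normalization 4 were higher past the threshold. The mean level of the list was 9.37 and 9.42 in the wild type mice and 9.61 and 9.82 in the transgenic mice.

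The co-receptors that divide T cells into their main classes differed in opposite directions. Cd8a, of cytotoxic T cells, read 8.80 and 9.02 in the wild type mice and 10.02 and 10.09 in the transgenic mice, a difference of 1.14 (SE 0.12, limma adjusted p = 0.101). Its partner Cd8b1 differed by 0.74 (limma adjusted p = 0.168). Cd4, of helper T cells, read 7.76 and 7.90 in the wild type mice and 7.05 and 7.03 in the transgenic mice, a difference of -0.79 (SE 0.11, limma adjusted p = 0.127), although a dimmer probe set differed by -0.08. Ubash3a, a regulator of T cell receptor signalling, differed by 0.55 (limma adjusted p = 0.20), although a dimmer probe set differed by -0.10 with overlap.

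No T cell gene on the list had a difference above that of Icos, before or after quantile normalization. In transgenic mouse 1 Icos stood 1.24 above the wild type mean and the list median 0.24 above, a margin of 1.00. In transgenic mouse 2 the values were 1.55 and 0.41, a margin of 1.14. A dimmer probe set of Cd8a differed by 1.90, more than any Icos probe set. The part of T cell content in the Icos difference was not tested.

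Transcripts of other cell types differed to various extents. Of 13 neutrophil genes 12 were higher without overlap (median 1.09, mean level 4.77 and 4.78 in wild type and 6.07 and 6.32 in transgenic mice). Chil3, a chitinase-like protein, and Ngp, a granule protein, passed limma over all probe sets (differences 3.83 and 2.77, adjusted p = 0.0219 for each), and after quantile normalization 7 of the 13 passed as higher. Mpo, the myeloperoxidase of immature neutrophils, was below the dim threshold of 4.10 in both groups. Of 13 monocyte and macrophage genes 9 were higher without overlap (median 0.22), Ccr2, a chemokine receptor, by 1.19, and 2 passed as higher after quantile normalization, with Cd163, Itgam and Mrc1 below the dim threshold in both groups. For dendritic cells, which also carry ICOSL, 4 of 8 genes were higher and 2 lower without overlap, with a median of 0.03. Itgax, the dendritic cell integrin CD11c, differed by -0.50, Flt3 by -0.36, Cd209a by 0.46 and Xcr1 by 0.55. Natural killer genes had a median of 0.06, with Eomes, a transcription factor also found in memory CD8 T cells, at 1.18 and Gzma, a cytotoxic protease, at -0.96, and after quantile normalization 2 of 11 passed as higher and 1 as lower. Stroma and endothelium, another source of ICOSL, had a median of -0.09 and 5 of 11 genes lower without overlap, and Col1a1, Col1a2, Col3a1, Lyve1 and Pdpn were below the dim threshold in both groups.

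**Figure D2:**
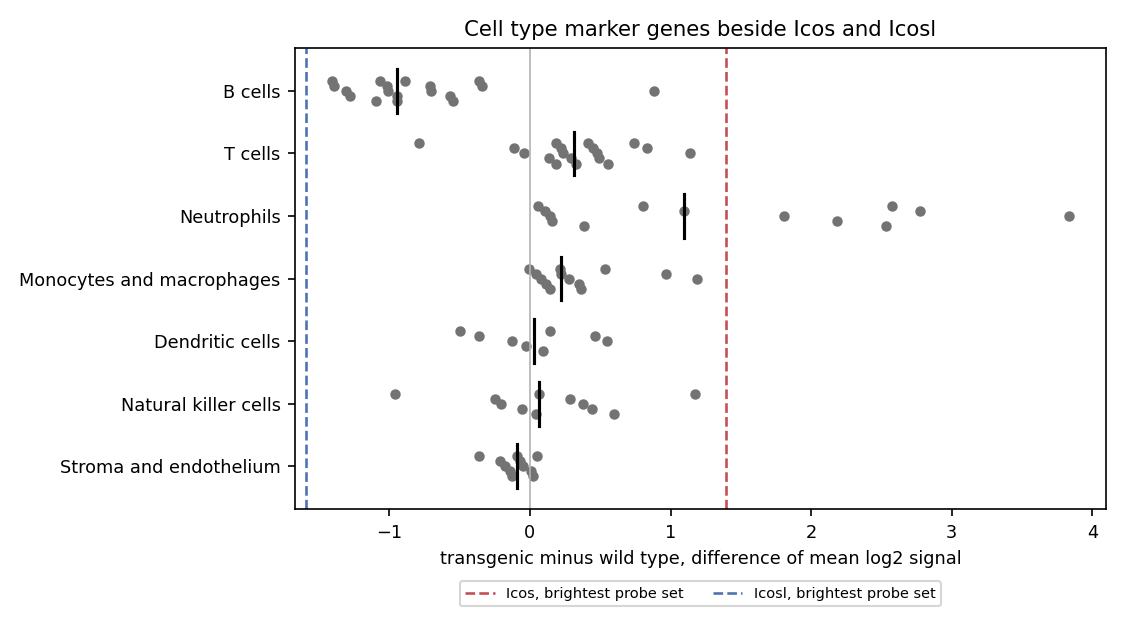
Transgenic minus wild type difference of mean log2 signal (horizontal axis) for each measured gene of 7 cell type marker lists (rows); each point is a gene at its brightest probe set, black ticks are list medians, and dashed lines mark Icos (1.39) and Icosl (-1.59). B cell genes centre on -0.94 and T cell genes on 0.31, and no point of either list lies outside the lines for Icosl and Icos.

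The remaining receptors of the CD28 family were examined beside Icos. Cd28, the constitutive co-stimulator of T cells, read 8.82 and 8.92 in the wild type mice and 9.37 and 9.93 in the transgenic mice, a difference of 0.78 (SE 0.21, limma adjusted p = 0.255). Its other probe set differed by 1.01, again with no overlap between the groups. Ctla4, which restrains CD28, differed by 0.54 (SE 0.19, limma adjusted p = 0.34), from 8.10 and 8.22 to 8.45 and 8.95. Both values lay below the 1.39 of Icos. Pdcd1, the inhibitory receptor PD-1, overlapped between the groups (-0.03), and Btla, an inhibitory receptor found on B cells as well as T cells, differed by -0.56. None of the 4 passed limma over all probe sets (2 higher and 1 lower at an unadjusted p under 0.05). After quantile normalization Cd28 and Ctla4 passed (limma adjusted p = 0.0405 and 0.0484).

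Among the other ligands listed, 5 of 8 were lower and 3 higher without overlap, and the median difference was -0.40. The 8 were B7-family proteins and their relatives, together with Tnfrsf14, which is not a B7 protein. Cd86, a B7 protein induced early on activated antigen-presenting cells, read 7.25 and 7.32 in the wild type mice and 6.74 and 7.07 in the transgenic mice, a difference of -0.38 (SE 0.15, limma adjusted p = 0.373). Its second probe set differed by -0.56. Cd80, the other ligand of CD28 and CTLA4, was dim at 4.42 and 4.27 against 4.51 and 4.46, and its 4 probe sets differed by between -0.39 and 0.14. Tnfrsf14, the ligand of BTLA, differed by -0.93, Pdcd1lg2, a ligand of PD-1, by -0.92, and Cd274, the main ligand of PD-1, by -0.43.

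The difference of the brighter Icosl probe set (-1.59) lay below that of all 8 other ligands, but as the mean of both probe sets (-0.88) Icosl lay above Tnfrsf14 and Pdcd1lg2. None of them passed limma over all probe sets (1 higher and 3 lower at an unadjusted p under 0.05), and after quantile normalization Tnfrsf14 passed as lower (limma adjusted p = 0.0426). Vsir, a B7-related checkpoint protein, differed by 0.31, but its dimmer probe set differed by 0.03 with overlap. Cd276 differed by -0.69 at signals of 3.36 to 4.46. Vtcn1, at 3.04 to 3.15, did not stand out from the non-specific controls on any array. The median of these ligands was -0.64 in transgenic mouse 1 and -0.16 in transgenic mouse 2, so its size depended on the array.

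The known regulators of Icosl were examined next. In B cells the ligand is maintained by the BAFF receptor and CD40 through the non-canonical branch of NF-kB, and it is removed from the surface by the protease ADAM10. Of 12 measured genes of this list 10 were lower without overlap and none was higher, with a median of -0.57 (-0.70 in transgenic mouse 1 and -0.41 in mouse 2). Cd40 read 9.28 and 9.27 in the wild type mice and 7.65 and 8.14 in the transgenic mice, a difference of -1.37 (SE 0.19, limma adjusted p = 0.129). Tnfrsf13b, the BAFF and APRIL receptor TACI, differed by -1.11 (limma adjusted p = 0.0935), Tnfrsf13c, the BAFF receptor, by -0.95 (adjusted p = 0.136), and Nfkb2, the precursor of the non-canonical subunit, by -0.67 (adjusted p = 0.142).

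None of the 12 passed limma over all probe sets (8 lower and 0 higher at an unadjusted p under 0.05). After quantile normalization Cd40 and Tnfrsf13c passed (limma adjusted p = 0.0198 and 0.0281) and the median was -0.39. Adam10 overlapped between the groups at its brightest probe set, with 9.07 and 9.01 against 8.95 and 9.28 and a difference of 0.08. Its other probe sets differed by 0.67 and -0.13. Map3k14, the kinase NIK, differed by -0.34 and Relb, the partner of the non-canonical subunit, by -0.64. Cd40 and both BAFF receptors are themselves B cell genes, and the B cell list had a median of -0.94 in these arrays. The part of B cell content in the differences of the 12 genes was not tested.

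On the T cell side, genes that act downstream of ICOS showed no common direction. Of 15 measured, 3 were higher, 3 lower and 9 overlapped between the groups, with a median of -0.07 that was 0.09 after quantile normalization. Maf, a transcription factor that ICOS signalling induces, read 4.39 and 4.46 in the wild type mice and 4.82 and 5.67 in the transgenic mice, a difference of 0.83 (SE 0.29, limma adjusted p = 0.345). Akt1, a kinase downstream of phosphoinositide 3-kinase, differed by -0.37, though its probe sets did not all share a sign, and Mtor by -0.41. Nfatc1, a calcium-dependent transcription factor, differed by -0.43. None passed limma over all probe sets as deposited (1 higher and 1 lower at an unadjusted p under 0.05) or after quantile normalization. Pik3cd, the lymphocyte catalytic subunit of phosphoinositide 3-kinase, differed by -0.04 with overlap on its brightest probe set. Its dimmer probe sets differed by 0.70 and 0.35 without overlap. Tbk1, a kinase recruited by ICOS, differed by -0.26 with overlap.

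Repressors of Icos mRNA were examined because they set its level in T cells. Roquin-1 and roquin-2 (Rc3h1 and Rc3h2) and the nuclease regnase-1 (Zc3h12a) bind stem-loops in Icos and related transcripts and promote their decay. Of 8 repressors and decay factors 6 were lower without overlap and 2 overlapped, where 31.4% of all genes were lower without overlap. The median was -0.31 (-0.45 in transgenic mouse 1 and -0.16 in mouse 2). The array of transgenic mouse 1 had the lowest upper quartile of the arrays (6.13), and its part in these differences was not tested. Rc3h2 differed by -0.50 (SE 0.16, limma adjusted p = 0.313), Edc4, of the decapping complex, by -0.50 (adjusted p = 0.358), Zc3h12a by -0.31 and Ddx6 by -0.33. Rc3h1 read 7.01 and 6.89 against 6.64 and 7.13, with overlap and a difference of -0.06. None passed limma over all probe sets (2 lower and 0 higher at an unadjusted p under 0.05) or after quantile normalization, where the median was -0.13.

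Genes of T follicular helper cells, among which Icos is abundant, showed no common direction. Of 15 measured, 6 were higher and 5 lower without overlap, with a median of 0.0036. Il4, a cytokine of these cells that basophils also make, read 3.46 and 3.30 in the wild type mice and 4.85 and 5.05 in the transgenic mice, a difference of 1.58 (SE 0.13, limma adjusted p = 0.0806). Its wild type signal was below the dim threshold, and it was the 1 list member with a larger difference than Icos. Cxcr5, the follicle-homing receptor carried by B cells too, differed by -1.28 (SE 0.17, limma adjusted p = 0.121), Cd200 by -0.69 and Lef1 by -0.62. Il21, the cytokine by which these cells support germinal centres, differed by 0.35 and Bcl6, their master regulator and that of germinal centre B cells, by -0.50, with a dimmer probe set at 0.19. None passed limma over all probe sets (3 higher and 4 lower at an unadjusted p under 0.05), and after quantile normalization Il4 and Cxcr5 passed (adjusted p = 0.0112 and 0.0185).

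Regulatory T cells and innate lymphoid cells also carry ICOS. Foxp3, which defines regulatory T cells, overlapped between the groups at 5.65 and 5.67 against 5.75 and 5.44. Of 10 genes of both cell types 6 were higher and none lower without overlap, with a median of 0.23. Itgae, an integrin of tissue-resident and regulatory T cells, differed by 0.90 (SE 0.10, limma adjusted p = 0.105), Gata3, a transcription factor of type 2 lymphocytes, by 0.56, Il2ra by 0.31 and Tnfrsf4, the co-stimulator OX40, by 0.37. None passed limma over all probe sets (3 higher and 0 lower at an unadjusted p under 0.05), and after quantile normalization Itgae and Gata3 passed (adjusted p = 0.0285 and 0.0308).

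**Figure D3:**
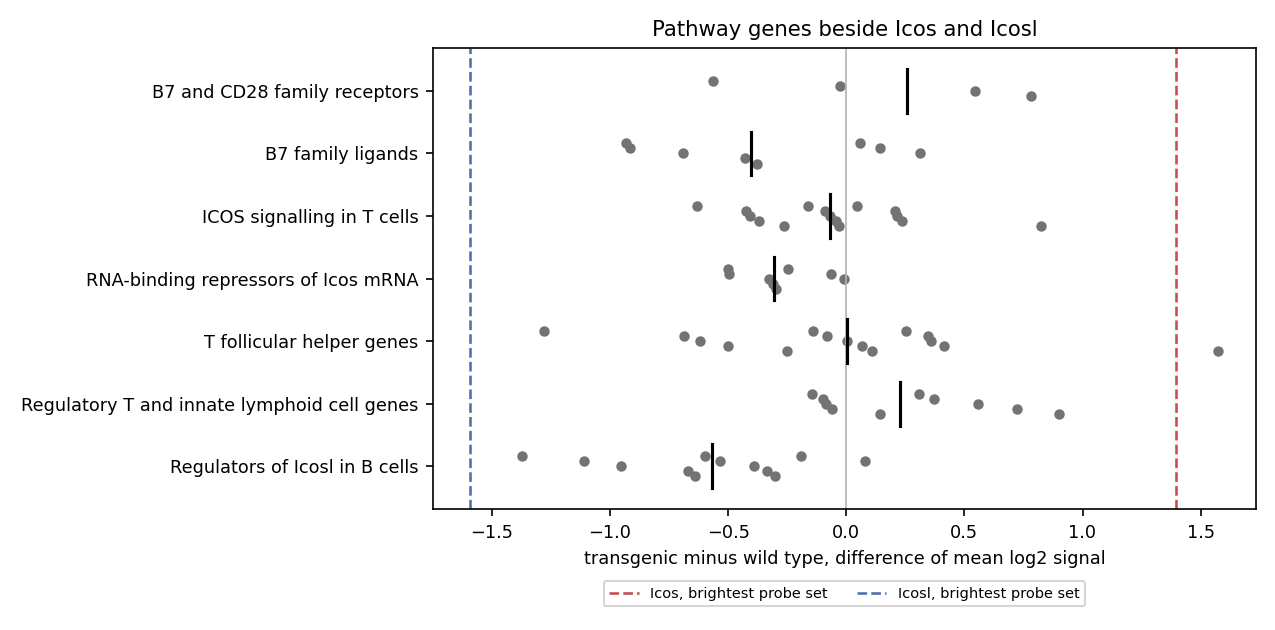
Transgenic minus wild type difference of mean log2 signal (horizontal axis) for each measured gene of 7 pathway lists (rows), without Icos and Icosl themselves; each point is a gene at its brightest probe set, black ticks are list medians, and dashed lines mark Icos (1.39) and Icosl (-1.59). The regulators of Icosl centre on -0.57 with none below the Icosl line, and 1 gene, Il4 at 1.58, lies beyond the Icos line.

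The genes whose profile was most like that of Icos were found by the distance between log2 profiles over the 4 arrays, each centred on its own mean, among 12023 other genes above the dim threshold. The nearest was Padi2, a peptidylarginine deiminase (distance 0.03), which read 4.81 and 4.76 in the wild type mice and 6.00 and 6.30 in the transgenic mice. Next came Gzmm, a granzyme of cytotoxic lymphocytes (0.06), Hopx, a homeodomain protein (0.11), Nfil3, a transcription factor (0.11), and Arl2bp (0.12). Their transgenic-minus-wild-type differences ran from 1.33 for Nfil3 to 1.48 for Arl2bp. With 4 arrays, such a likeness rests mainly on the difference between the groups.

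Icosl had no neighbour as close. Its nearest gene was Pou2f2, the B cell transcription factor OCT2 (distance 0.30), at 6.80 and 7.21 in the wild type mice and 5.85 and 5.28 in the transgenic mice on a probe set that can cross-hybridise by its name. A second Pou2f2 probe set differed by -1.43, against -1.44 for the first. Rgl1 (0.34), Irf8, an interferon regulatory factor active in B cells and myeloid cells (0.36), Kmo, an enzyme of tryptophan breakdown (0.37), and Cd79a, a signalling chain of the B cell receptor (0.39), followed. Their differences ran from -1.30 for Rgl1 to -1.53 for Kmo. In the promoter windows of these 5 genes, the GC box was found in 3 genes, the CCAAT box in 2, the TATA box in 1 and the octamer in 0. Over all windows the shares were 35.7%, 37.4%, 13.6% and 1.74%. Rgl1 and Irf8 had 2 windows each, so these counts by gene are not directly comparable with shares by window.

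**Figure D4:**
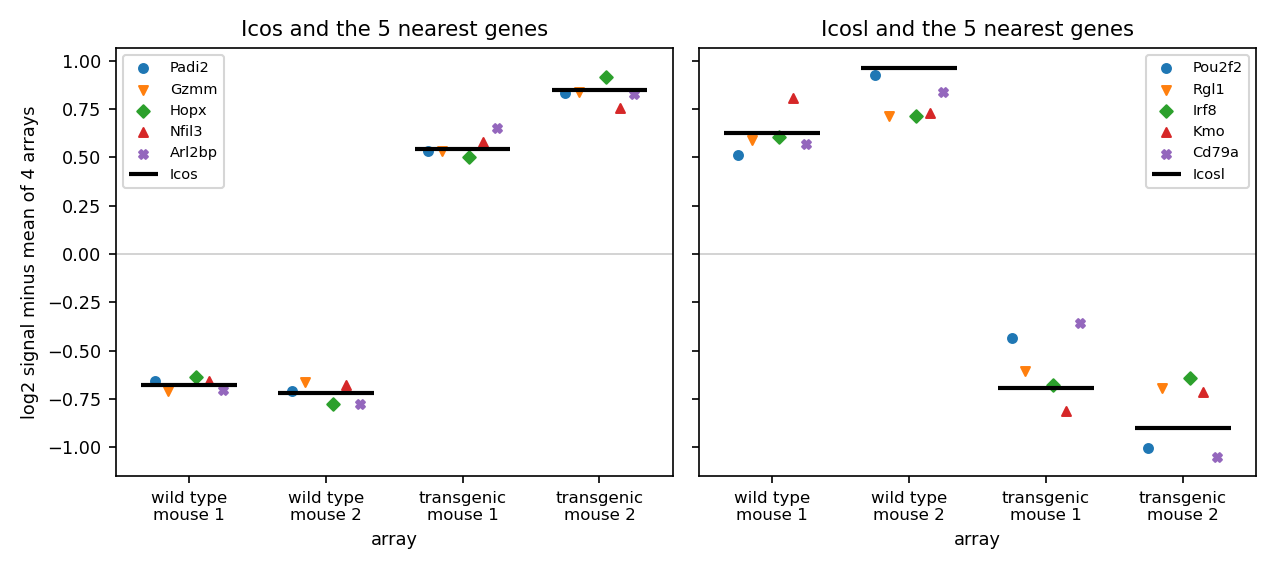
Log2 signal minus the gene's mean over the 4 arrays (vertical axis) on each array (horizontal axis) for Icos (left) and Icosl (right), drawn as black bars, and the 5 genes with the nearest profiles, drawn as coloured symbols. The neighbours of Icos lie within a distance of 0.03 to 0.12 of it and those of Icosl within 0.30 to 0.39.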

How the data were processed

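Total RNA of lymph node B cells was labelled with biotin by a 3′ kit and hybridised to 1-colour Affymetrix arrays, per the labels' protocols. The deposited values were log2 signals that the authors had processed, and their background correction, normalization and probe summary are not given in the sources used here. That these are log2 values was inferred from their range, 2.01 to 13.03. Of 45141 probe sets, 104 controls were left out. Platform annotation gave 1 gene for 28898, several for 551 and none for 15588, and 28689 were matched by Entrez ID to RefSeq (GRCm38.p6). Each of 17097 genes took the probe set that was brightest on average, and the dim threshold (4.10) is the 40th percentile of mean signal.

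The comparison used lmFit and eBayes of limma 3.58.1 under R 4.3.3, tested on simulated data first. P-values were two-sided and adjusted by Benjamini and Hochberg's method across all 45037 probe sets, with a threshold of 0.05. An exact permutation test of 2 against 2 cannot go below p = 0.333. Same-numbered mice did not deviate together (correlation 0.01), so no block was used. P-values rest on the spread between these mice, which eBayes shares in part across probe sets. Named genes were Icos, Icosl, Cd28, Ctla4, Cd80 and Cd86, up to 4 genes per other list by smallest p, and 5 nearest profiles each; others were chosen after their values were seen. Members and lists were chosen with earlier results of these data known. Alternatives were quantile normalization, centring on medians, the replicate block, dropping dim probe sets, trended and robust eBayes, a threshold of 0.1, averaging a gene's probe sets and leaving out each array. Promoter and microRNA sequences came from RefSeq (GRCm38.p6), which listed no promoter for Icos here. Figures used matplotlib 3.10.9.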

Additional observations from a re-analysis of the deposited data

How the results depend on the processing

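The direction of the Icos and Icosl differences, on which the pair was chosen, held on all 5 probe sets under every alternative run. Where the groups did not overlap, leaving out an array could not have changed the direction. Icos 1436598_PM_at ran from 1.24 to 1.55 over 8 alternatives, and Icosl 1419212_PM_at from -1.76 to -0.88, the last as the mean of both Icosl probe sets. The replicate block could not change either main difference (1.39 and -1.59), because each mouse number occurred in both groups. The dimmer Icosl probe set, whose groups overlapped, ran from -0.29 to -0.05.

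The count of probe sets past the limma threshold, 21 as deposited, depended on scaling and on single arrays. It was 870 after quantile normalization, 614 after median centring, 51 with dim probe sets filtered, 26 with a trended and robust eBayes, 139 at an adjusted p of 0.1 and 15 with the replicate block. Leaving out single arrays gave between 0 and 19110: 4140 without transgenic mouse 1, 19110 without transgenic mouse 2, and 0 by limma without wild type mouse 1 or 2, where 1631 and 1576 had an unadjusted p under 0.05. The array left alone was assumed to vary like the other group. The cause was not tested. Of the list medians, those for ICOS signalling (2 of 7 alternatives), T follicular helper, dendritic cell and natural killer genes (1 of 7 each) changed sign, and those of B cells (-1.04 to -0.78) and T cells (0.24 to 0.41) did not. Little can be said of the dimmer Icosl probe set, whose group means lay at most 1.79 above the non-specific controls.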
